A study of Mus musculus with 2 samples.

Results

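MicroRNA genes that gave a signal above the array's middle level in mouse embryonic stem (ES) cells with and without induced CTCFL were described. CTCFL, also called BORIS, is a testis-specific paralog of the DNA-binding zinc finger protein CTCF. The genes were selected on the measured values themselves: a microRNA gene, named by a symbol that starts with Mir and a number or with Mirlet, was taken when the higher of its array values reached the median of all named gene values, a log2 signal of 6.36 (hereafter the floor). This rule took 70 of 300 microRNA genes among 19938 genes measured, and 230 microRNA genes lay below the floor. Of the 70, 69 were annotated as microRNAs and 1, Mir17hg, as the long noncoding host transcript of the Mir17-92 cluster. The rule used the higher of both values, so a gene could enter through 1 array only. Among such genes, Mir679 entered through the induced array, with 5.62 in non-induced cells. Mirlet7f-1 and Mir15a entered through the non-induced array, with 5.67 and 6.35 in induced cells. Levels and differences of the selected genes are therefore given as descriptions, without a test.

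Total RNA was hybridized to Affymetrix Mouse Gene 1.0 ST arrays, 1 array for each of 2 groups. The induced cells had received doxycycline over 3 days, after which GFP-positive cells were sorted. The non-induced cells received no doxycycline and were not sorted, so that CTCFL, doxycycline and sorting cannot be told apart. Both groups were ES cells that carried the doxycycline-dependent activator rtTA at ROSA26 and a transgene in which the doxycycline-responsive TRE drives mouse CTCFL tagged with V5 and GFP. The transgene carried neomycin resistance, clones were selected with G418, and all cells were grown in medium with LIF on gelatin. Cells of both arrays therefore carried the transgene, and the comparison holds no cells without it. With 1 array per group the differences had no replicate check.

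MicroRNAs are cut from long primary transcripts in the nucleus by Drosha and Dgcr8, carried to the cytoplasm by Exportin 5, trimmed by Dicer and loaded into Argonaute proteins, where the seed at the 5′ end of the mature strand pairs with target messages. Neighbouring hairpins often share a primary transcript, and many others lie in introns of protein-coding genes. In ES cells the Mir290, Mir302 and Mir17-92 clusters are known for short seeds of related sequence that favour fast cell cycling, while Lin28 proteins hold back maturation of let-7, a family that promotes differentiation. The probe sets could have read primary transcript, hairpin or mature RNA, and which of these gave the signal was not tested.

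The sequences of the genes with the widest differences are shown first, because their seeds and base composition return in the results below. All come from RefSeq, build GRCm38.p6. A mature sequence was found for 61 of the 70 genes and a hairpin for 54. Capitals mark the seed, bases 2 to 8 of the mature strand. The first set holds the strands of 4 neighbouring hairpins of the Mir17-92 cluster on chromosome 14, which were lower in the induced array, and that of Mir15a, which lies elsewhere on the same chromosome.
miR-18a-5p, chr14:115043867-115043889, plus strand: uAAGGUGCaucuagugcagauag
miR-19a-3p, chr14:115044048-115044070, plus strand: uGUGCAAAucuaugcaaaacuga
miR-20a-5p, chr14:115044183-115044205, plus strand: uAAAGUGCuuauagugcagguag
miR-19b-3p, chr14:115044358-115044380, plus strand: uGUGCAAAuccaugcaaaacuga
miR-15a-5p, chr14:61632075-61632096, minus strand: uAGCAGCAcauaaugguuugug

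The next set holds 3 members whose seeds recur in or near the Mir17-92 family but which come from other chromosomes. The seed of miR-93-5p is the same as that of miR-20a-5p, and miR-25-3p and miR-92b-3p share theirs.
miR-93-5p, chr5:138165574-138165596, minus strand: cAAAGUGCuguucgugcagguag
miR-25-3p, chr5:138165332-138165353, minus strand: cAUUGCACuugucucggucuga
miR-92b-3p, chr3:89227126-89227147, minus strand: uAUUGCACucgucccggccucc

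The 4 selected let-7 genes are shown because they share the seed GAGGUAG and yet lay on both sides of 0.
let-7f-5p (Mirlet7f-1), chr13:48537889-48537910, minus strand: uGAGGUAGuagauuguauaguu
let-7d-5p (Mirlet7d), chr13:48536078-48536099, minus strand: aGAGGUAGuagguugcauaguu
let-7e-5p (Mirlet7e), chr17:17830366-17830387, plus strand: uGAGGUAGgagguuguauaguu
let-7i-5p (Mirlet7i), chr10:122985698-122985719, minus strand: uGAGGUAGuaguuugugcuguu

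The last mature strands belong to the 3 genes with the widest difference upwards, all in the imprinted Dlk1-Dio3 region of chromosome 12.
miR-679-5p, chr12:109715587-109715608, plus strand: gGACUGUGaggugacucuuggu
miR-431-5p, chr12:109590459-109590479, plus strand: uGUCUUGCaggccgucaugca
miR-673-5p, chr12:109572004-109572025, plus strand: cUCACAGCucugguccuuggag

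A pair of let-7 hairpins is given whole, with the mature strands in capitals, because the hairpins of this pair differ in GC content, 39.3% for Mirlet7f-1 (chr13:48537829-48537917, minus strand) and 62.4% for Mirlet7e (chr17:17830352-17830444, plus strand), while their main strands are nearly alike.
Mirlet7f-1 hairpin: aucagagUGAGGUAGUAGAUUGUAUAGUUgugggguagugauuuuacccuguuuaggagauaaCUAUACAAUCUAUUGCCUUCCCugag
Mirlet7e hairpin: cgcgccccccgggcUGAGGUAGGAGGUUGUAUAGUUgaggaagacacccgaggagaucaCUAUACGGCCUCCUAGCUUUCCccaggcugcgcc

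The transgene was seen on the arrays, where Ctcfl reached 9.44 in induced and 5.99 in non-induced cells, a log2 difference of 3.45. All 9 ES cell markers (the cell type in the labels) lay above the floor, with a median of 10.82 in induced cells and 10.83 in non-induced cells and a median difference of -0.01. Of 9 fibroblast and mesenchyme markers 8 lay higher in the induced array, beside 51.4% of all genes. Their median difference was 0.42, and their summed log2 signal was 71.5 in induced cells and 68.0 in non-induced cells. Endoderm markers were above 0 in 3 of 5 genes with a median of 0.25, neural markers in 2 of 3 with 0.01, and trophoblast markers in 1 of 3 with -0.02. The array medians over all genes were 6.40 in induced cells and 6.30 in non-induced cells, 0.10 apart, while the median of the differences per gene was 0.013 over all genes. In bulk RNA, fewer cells of a type and less RNA per cell cannot be told apart.

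Most of the 70 microRNA genes were slightly higher in the induced array, while the widest differences were downwards. The difference, induced minus non-induced, was above 0 in 50 genes and below 0 in 20 (44 and 26 when each array was centred on its median), with a median of 0.21 and quartiles of -0.08 and 0.40. After centring, the median was 0.11 over the same 70 genes and 0.10 over the 69 genes that the rule then selected. It was 0.0477 over the 25 genes above a floor at the 75th percentile and -0.0081 over all 300 microRNA genes without a floor. The median log2 signal of the 70 genes was 7.25 in induced cells and 7.11 in non-induced cells. Over all 10697 genes at or above the floor the median difference was -0.03 and 46.6% were above 0.

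Values that lay log2 1 or more apart were counted as a higher or lower gene. Of the 70 genes 1 was higher, 1.43%, beside a background of 0.477% among all genes at or above the floor, and 5 were lower, 7.14%, beside a background of 1.79%. As the selection used the same arrays, nothing is read from these shares beyond the counts. By size, 25 genes lay within 0.25 of 0, of which 19 were above it and 6 below. A further 21 lay between 0.25 and 0.5 from 0, 19 above and 2 below, and 18 lay between 0.5 and 1, 11 above and 7 below. Positive signs thus prevailed among the small differences, and of the 6 genes at log2 1 or more 5 were negative.

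**Figure D1:**
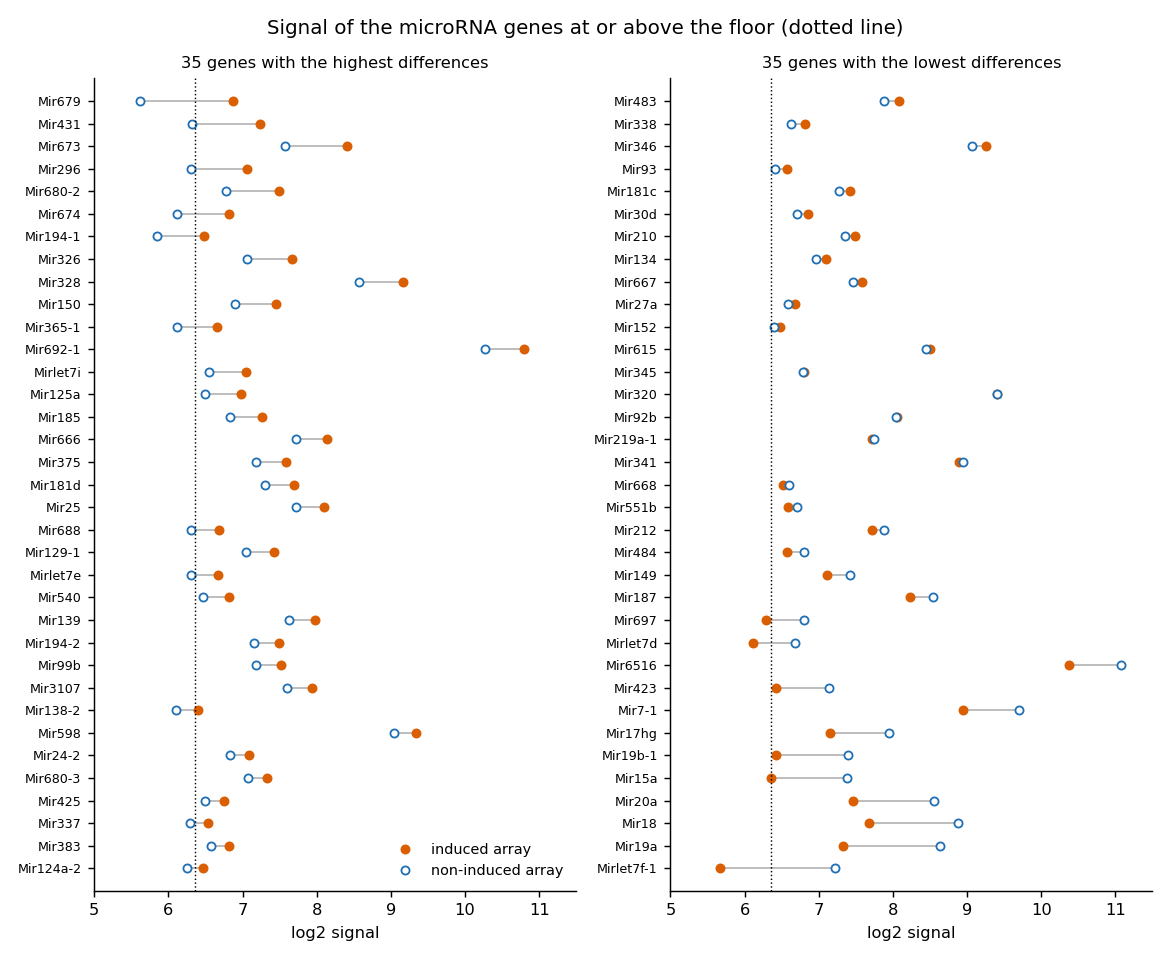
Log2 signal of the 70 microRNA genes, with separate points for induced and non-induced cells, ordered by the difference. Mirlet7f-1 stands at the low end of the order with 5.67 in induced cells and 7.21 in non-induced cells, and Mir679 at the high end with 6.88 in induced cells and 5.62 in non-induced cells.

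**Figure D2:**
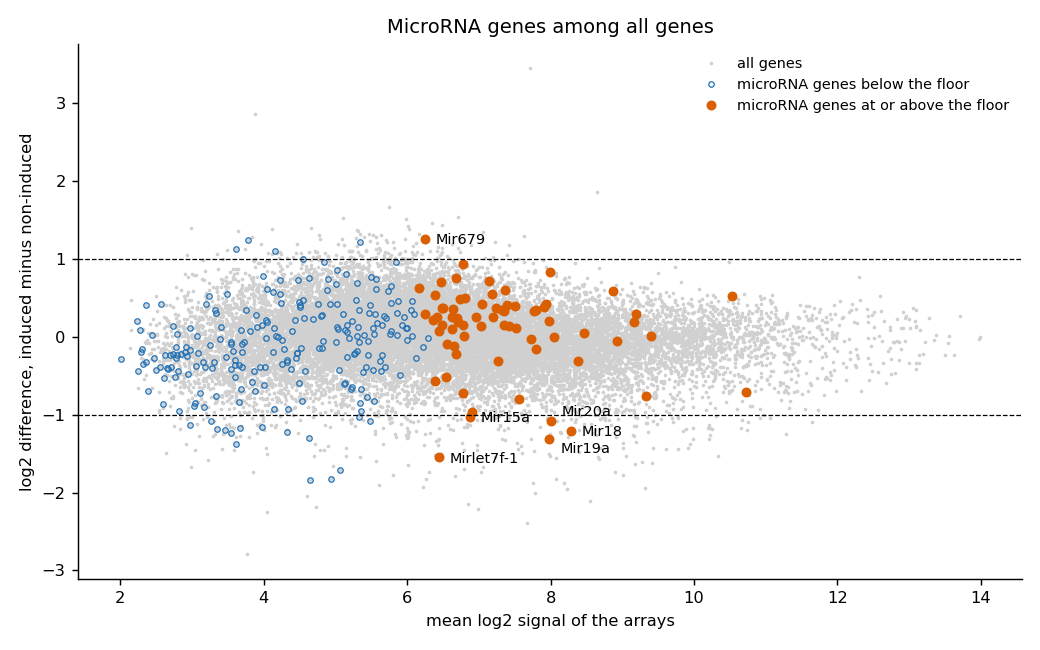
Difference in log2 signal, induced minus non-induced, plotted on the average log2 signal of both arrays, for all genes and for microRNA genes at or above and below the floor; dashed lines mark log2 1. Of the microRNA genes at or above the floor, 5 lie at or below the lower line and 1 lies above the upper line.

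The Mir17-92 cluster held 3 of the 5 genes lower by log2 1. Its primary transcript yields a set of microRNAs known to promote proliferation. Mir19a had a log2 signal of 7.33 in induced cells and 8.64 in non-induced cells, a difference of -1.31 or 2.48-fold lower. Mir18 stood at 7.68 in induced cells and 8.88 in non-induced cells, a difference of -1.21. Mir20a, whose strand targets E2F family messages, stood at 7.47 in induced cells and 8.55 in non-induced cells, a difference of -1.09.

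The remaining members of the cluster went the same way without reaching log2 1. Mir19b-1 had 6.43 in induced cells and 7.39 in non-induced cells, a difference of -0.96. The host transcript Mir17hg, read by a probe set of its own, had 7.16 in induced cells and 7.95 in non-induced cells, a difference of -0.80. All 5 genes of the cluster above the floor were thus lower in the induced array, with a median of -1.09. A probe set annotated to both Mir92-1 and Mir17hg, not counted here, also reached the floor. It had 7.84 in induced cells and 8.27 in non-induced cells, a smaller difference of -0.44. Mir17, the hairpin that gives the cluster its name, was below the floor with 5.34 in induced cells and 5.58 in non-induced cells, a difference of -0.24. Probe sets of neighbours on 1 primary transcript do not measure it independently.

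The paralogous Mir106b-25 cluster, which lies in an intron of the replication licensing gene Mcm7 on chromosome 5, took the other sign. Mir25 had 8.10 in induced cells and 7.72 in non-induced cells, a difference of 0.38. Mir93 had 6.57 in induced cells and 6.42 in non-induced cells, a difference of 0.15. Mir106b stayed below the floor with 5.87 in induced cells and 5.25 in non-induced cells, a difference of 0.62. The seed AAAGUGC was therefore carried by 1 member that was higher in the induced array, Mir93, and by 1 that was lower, Mir20a.

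Other carriers of the family differed in the same mixed way. Mir92b, from chromosome 3, had a log2 signal of 8.05 in both arrays. The X-linked paralog cluster was below the floor, and there Mir19b-2 had 4.21 in induced cells and 5.92 in non-induced cells, a difference of -1.71, and Mir363 had 3.99 in induced cells and 5.28 in non-induced cells, a difference of -1.30. Mir20b and Mir92-2 of this cluster differed by -0.44 and -0.15, and Mir106a by 0.58. Mir19b-1 and Mir19b-2 give the same mature strand, and near-identical copies may share probes. Over the 14 measured genes of Mir17-92 and its paralogs, 7 were above the floor, with 3 above and 4 below 0 (2 and 5 after centring), and 7 were below the floor, with 2 above and 5 below 0.

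Mir15a was the other gene of chromosome 14 lower by log2 1. It is the partner of Mir16-1, a pair known to restrain Bcl2 and cyclins and lost in human chronic lymphocytic leukaemia. Mir15a had 6.35 in induced cells and 7.38 in non-induced cells, a difference of -1.03. Mir16-1, below the floor, had 5.65 in induced cells and 6.15 in non-induced cells, a difference of -0.49. Chromosome 14 held 9 of the 70 genes, of which 6 were below 0 and 4 were lower by log2 1, namely the 3 of the Mir17-92 cluster and Mir15a.

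The let-7 genes above the floor had both signs. Mirlet7f-1 had the widest difference of all 70 genes, with 5.67 in induced cells and 7.21 in non-induced cells, a difference of -1.54 or 2.92-fold lower. Its neighbour Mirlet7d had 6.11 in induced cells and 6.68 in non-induced cells, a difference of -0.57. Mirlet7a-1 of the same locus was below the floor and had 5.57 in induced cells and 5.46 in non-induced cells, a difference of 0.11. The sign was not shared by the whole locus.

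The other pair of let-7 genes was higher in the induced array. Mirlet7e, in a locus with Mir99b and Mir125a on chromosome 17, had 6.67 in induced cells and 6.30 in non-induced cells, a difference of 0.37. Mirlet7i, a lone gene on chromosome 10, had 7.05 in induced cells and 6.55 in non-induced cells, a difference of 0.50. The 6 let-7 genes below the floor held 2 above 0 and 4 below, with a median of -0.30. Probe sets annotated to Lncppara together with Mirlet7b or Mirlet7c-2, not counted here, also reached the floor and differed by -0.77 and 0.01. Mature let-7 strands differ by few bases, and cross-reading of the probe sets was not tested.

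The neighbours of Mirlet7e lay on the same side. Mir99b had 7.52 in induced cells and 7.19 in non-induced cells, a difference of 0.33. Mir125a, the vertebrate relative of worm lin-4, had 6.99 in induced cells and 6.50 in non-induced cells, a difference of 0.49. All 3 genes of this locus were above the floor and higher in the induced array. The gene they overlap on the same strand, Spaca6, was below the floor and had the opposite sign. Spaca6 had 5.33 in induced cells and 5.75 in non-induced cells, a difference of -0.42.

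The Dlk1-Dio3 region, whose maternal chromosome expresses one of the longest arrays of microRNAs in mammals, gave 10 of the 70 genes. Of these 8 were above 0, with a median of 0.30, beside 71.4% above 0 and a median of 0.21 over all 70 genes. Mir679 was the only gene of the 70 higher by log2 1, with 6.88 in induced cells and 5.62 in non-induced cells, a difference of 1.26 or 2.39-fold higher. Mir431, which lies antisense to the retrotransposon-derived gene Rtl1, had 7.24 in induced cells and 6.31 in non-induced cells, a difference of 0.93. Mir673 had 8.40 in induced cells and 7.58 in non-induced cells, a difference of 0.83.

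The other Dlk1-Dio3 genes above the floor lay closer to 0. Mir666, with 8.14 in induced cells and 7.73 in non-induced cells, differed by 0.42, and Mir540, with 6.82 in induced and 6.47 in non-induced cells, by 0.35. Mir337, Mir134 and Mir667 differed by 0.25, 0.13 and 0.12, and Mir341 and Mir668 by -0.06 and -0.09. Mir134, reported in mouse ES cells to target messages of pluripotency factors, had 7.10 in induced cells and 6.97 in non-induced cells.

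The dimmer genes of the same region did not follow. Of 30 Dlk1-Dio3 microRNA genes below the floor 6 were above 0 and 24 below, with a median of -0.30, which was -0.19 after lowess, which takes out any trend with signal level, and -0.063 with the offset of 32 on the linear scale. In the stretch that contains Mir379 the 5 genes above the floor had a median of 0.13 and the 25 others a median of -0.32. Mir434, also antisense to Rtl1 and below the floor, had 2.93 in induced cells and 4.30 in non-induced cells, a difference of -1.37. The brighter and the dimmer genes of the region thus lay on opposite sides of 0 in the median. This was not particular to the region. Over all microRNA genes the median was 0.21 at or above the floor and -0.11 below it, where 43.0% were above 0. The part of probe brightness in this was not tested.

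**Figure D3:**
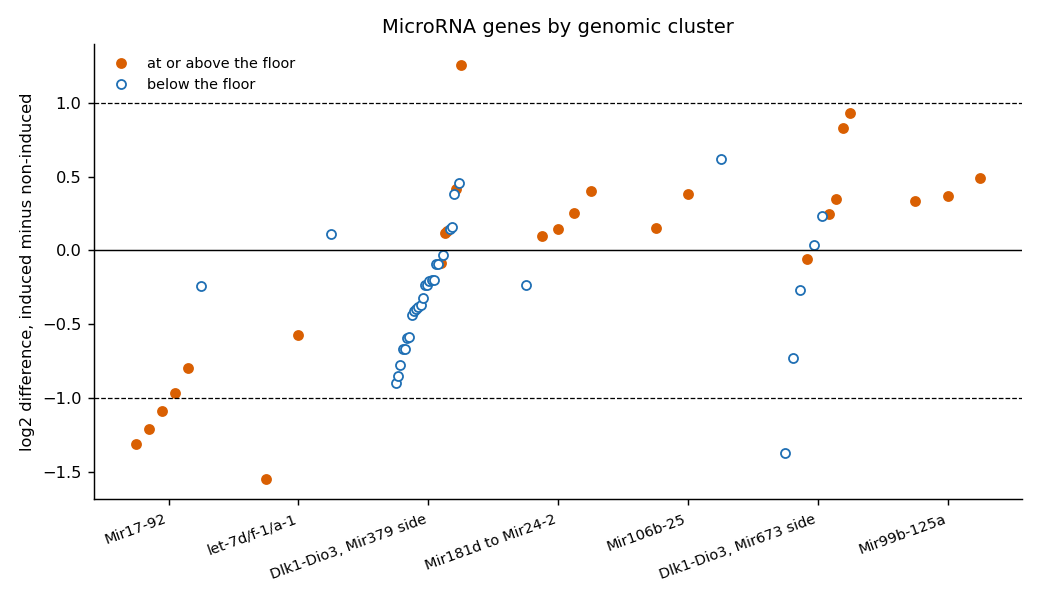
Difference in log2 signal, induced minus non-induced, of every microRNA gene in the 7 genomic clusters with several genes above the floor, with genes at or above and below the floor as separate symbols and dashed lines at log2 1. In the Mir17-92 cluster the 5 genes above the floor lie between -1.31 and -0.80, and in the locus of Mirlet7e all 3 lie between 0.33 and 0.49.

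Location was examined over all 70 genes by joining microRNA genes within 50 kb of each other in GRCm38.p6. This placed 34 of the 70 genes in 15 clusters and left 36 alone. In 7 clusters several genes were above the floor, 26 in all, and in 5 of these clusters all such genes shared 1 sign. The exceptions were the 2 stretches of Dlk1-Dio3. In the cluster of chromosome 8 that holds Mir181c, Mir181d, Mir27a and Mir24-2, all 4 were higher in the induced array, by 0.15, 0.40, 0.10 and 0.25, except that Mir27a lay below 0 after centring, and Mir23a, below the floor, differed by -0.23. By chromosome, all 8 genes of chromosome 8 (Mir27a only without centring) and all 5 of chromosome 7 were above 0. All 3 of chromosome 13 were below 0. On chromosome 12, 10 of 12 were above 0, among them Mir345 only without centring. Of all 70 genes 71.4% were above 0, so runs of genes above 0 are common at that share. Neighbours can also share a transcript, and no effect of location is read from these counts.

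Genes with the same seed were then set side by side. Among the 70 genes 7 seeds occurred in more than 1 gene. For AAAGUGC and GAGGUAG the carriers had both signs, and the carriers of GAGGUAG, the let-7 seed, spanned -1.54 to 0.50. The carriers of GUGCAAA, Mir19a and Mir19b-1, were both lower, and the carriers of the other 4 shared seeds (Mir181c with Mir181d, Mir25 with Mir92b, Mir680-2 with Mir680-3, Mir194-1 with Mir194-2) were all above 0, Mir92b only without centring. Mir19a with Mir19b-1 and Mir181c with Mir181d also share a cluster, so seed and locus cannot be told apart there. As 71.4% of the 70 genes were above 0, pairs with both genes above 0 are common at that share.

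Genes outside these clusters with wide differences downwards were few. Mir7-1, whose product is known as a brake on growth factor signalling in human cells, had 8.95 in induced cells and 9.70 in non-induced cells, a difference of -0.76. Mir423 had 6.42 in induced cells and 7.14 in non-induced cells, a difference of -0.72. Mir6516 had 10.37 in induced cells and 11.08 in non-induced cells, a difference of -0.71. It overlaps the long noncoding gene Snhg20 on the same strand, which was not measured by a probe set with a single symbol. Which RNA the Mir6516 probe set reads was not tested. Mir697 had 6.29 in induced cells and 6.80 in non-induced cells, a difference of -0.51. These 4 genes lie on chromosomes 13, 11, 11 and 4, and none reached log2 1.

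Wide differences upwards came from many places. Mir296, an imprinted microRNA of chromosome 2 that, like Mir134, was reported to target pluripotency messages in mouse, had 7.06 in induced cells and 6.31 in non-induced cells, a difference of 0.75. Mir674, also on chromosome 2, had 6.82 in induced cells and 6.12 in non-induced cells, a difference of 0.71. Mir680-2, on the X chromosome, had 7.50 in induced cells and 6.78 in non-induced cells, a difference of 0.71. Its relative Mir680-3, with the same seed, differed by 0.25. Mir194-1, Mir326 and Mir328 differed by 0.62, 0.60 and 0.59. All of these were below log2 1.

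Among the 10 genes with the brightest probe sets, those not yet described differed by less than log2 1. Mir692-1 had 10.80 in induced cells and 10.27 in non-induced cells, a difference of 0.53. Probe sets annotated to Mir692-2, Mir692-3 and Ftl1 together differed by 0.37 to 0.47. Which RNA the Mir692-1 probe set reads was not tested. Mir320, whose capped precursor forms without Drosha, had 9.41 in induced cells and 9.40 in non-induced cells, a difference of 0.01 that lay below 0 after centring. Mir346, Mir598 and Mir341 differed by 0.19, 0.30 and -0.06, and Mir615 and Mir187 by 0.05 and -0.31. Probe brightness also depends on the probes, so no order of abundance is read from it.

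The remaining genes lay between -0.31 and 0.54. Below 0 were Mir149 at -0.31, Mir484 at -0.22 and Mir551b at -0.11. Above 0 were Mir345 at 0.01, the hypoxia-induced Mir210 at 0.14, Mir30d at 0.15, Mir338 at 0.19, Mir483 of the Igf2 gene at 0.20, Mir383 at 0.24 and Mir425 at 0.25. Mir3107, Mir194-2, Mir139, Mir129-1 and Mir688 differed by 0.33, 0.34, 0.35, 0.37 and 0.37, the pancreatic islet microRNA gene Mir375 by 0.40, Mir185 by 0.43 and Mir365-1 by 0.54. None of these reached log2 1.

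At the floor itself, the genes just inside were Mir138-2 with 6.40 in induced cells and 6.10 in non-induced cells, Mir152 with 6.47 in induced and 6.40 in non-induced cells, and Mir124a-2 with 6.47 in induced and 6.25 in non-induced cells. Just outside were Mir680-1 with 6.32 in induced cells and 5.36 in non-induced cells, Mir455 with 6.29 in induced and 5.84 in non-induced cells, and Mir138-1 with 6.28 in induced and 6.30 in non-induced cells. The genes just outside differed by 0.96, 0.45 and -0.02, and those just inside by 0.30, 0.07 and 0.22.

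The 230 microRNA genes below the floor had the other balance of signs. There 99 were above 0 and 131 below, with a median of -0.11. With centring 82 were above 0 and 148 below, with a median of -0.21, and the median was -0.057 after lowess and -0.028 with the offset. Of these genes 5 were higher by log2 1 or more, 2.17%, beside 0.974% of all genes below the floor, and 15 were lower, 6.52%, beside 1.15%. The Mir302 cluster with Mir367, active in pluripotent cells, was all below the floor and all 5 genes were below 0, with a median of -1.20, which was -0.33 when an offset of 32 was added to the linear signals. Mir302b had 4.03 in induced cells and 5.86 in non-induced cells, a difference of -1.83, and Mir302d and Mir302a differed by -1.22 and -1.20. No gene of the Mir290 cluster was measured by a probe set with a single symbol.

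MicroRNAs of other tissues were mostly dim. None of the measured genes of the Sfmbt2 cluster families (5), the X-linked testis cluster (6), the Mir200 family (4), the Mir34 and Mir449 genes (5), the muscle genes (7) or the vascular and mesenchyme genes (7) reached the floor. The X-linked testis genes, active in male germ cells, stayed at or below 3.07 in both arrays and had a median difference of -0.07, which turned to 0.13 after lowess and 0.10 after a second quantile normalization. The Sfmbt2, Mir34 and Mir449, and muscle groups had medians of -0.28, -0.19 and -0.35, and the Mir200 family had a median of -0.26 with Mir200a at 1.22 and Mir200b at -1.16. With the offset these 4 medians were -0.065, -0.051, -0.078 and -0.12.

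All 7 vascular and mesenchyme microRNA genes, each below the floor, were above 0, beside 56.9% of all genes below the floor. Their median was 0.42 (0.14 with the offset), and the fibroblast and mesenchyme markers had a median of 0.42. The part of such cells in this was not tested. Among 11 neural genes 3 were above the floor, namely Mir124a-2 at 0.22, Mir219a-1 at -0.03 (above 0 after lowess and the second quantile normalization) and Mir212 at -0.15. Of 5 haematopoietic genes only Mir150, a microRNA of mature lymphocytes, was above the floor, with 7.45 in induced cells and 6.90 in non-induced cells, a difference of 0.54.

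Base composition moved with both level and difference across microRNA genes. A hairpin sequence was found for 258 of the 300 genes, 86.0%, and for 54 of the 70 above the floor, 77.1%. A check of GC content over the 70 alone is void because fewer than 80% of them had a value, and it is not given. Across the 258 genes the GC content of the hairpin had a Spearman correlation of 0.74 with the mean log2 signal and of 0.48 with the difference. These points are genes of the same 2 arrays that share labelling and hybridization, and are not independent replicates. The 151 hairpins with less than 50% GC had a median difference of -0.24, and 16 were lower by log2 1, while the 107 with 50% or more had a median of 0.20, and 2 were lower, beside 1.49% lower among all genes without a floor. The count of 2 is near that background.

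The genes with the widest differences can be placed on this scale. The hairpins of Mir19a, Mir18 and Mir20a hold 43.9%, 43.8% and 45.8% GC and that of Mirlet7f-1, printed above, 39.3%, while those of Mir431 and Mir673 hold 60.4% and 61.5%. Mir679, the gene with the widest difference upwards, has 48.6%. Other selected genes with less than 50% GC also lay above 0, such as Mir365-1 (46.0%) at 0.54 and Mir129-1 (47.9%) at 0.37. No order of the selected genes by base composition is read from these examples. The part of base composition in the differences was not tested. Among small nucleolar RNA genes above the floor, another class of short noncoding RNA, 50 of 51 were below 0, with a median of -0.80.

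**Figure D4:**
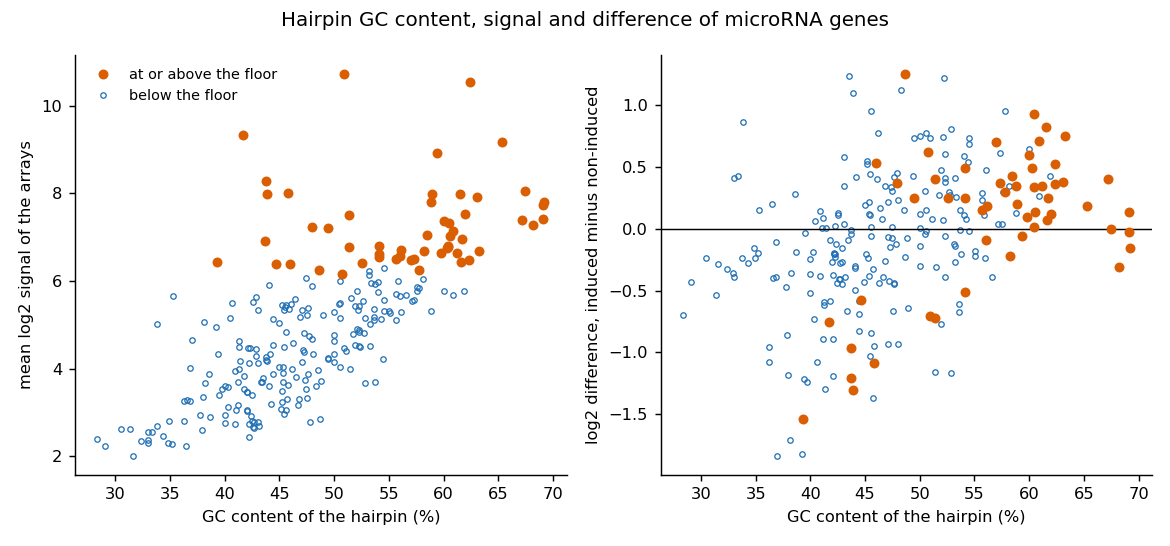
Mean log2 signal (left) and difference in log2 signal, induced minus non-induced (right), against the GC percent of the RefSeq hairpin for the 258 microRNA genes with a hairpin sequence, with genes at or above and below the floor as separate symbols. The signal is higher at higher GC content, and low-GC hairpins lie mostly below 0, with a median difference of -0.24 under 50% GC and 0.20 at 50% GC or more.

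Host genes gave a second reading of some loci, as intronic microRNAs are usually cut from the transcript of their host. Apart from Mir17hg, 36 of 69 genes overlapped another gene in the RefSeq annotation and 33 overlapped none. For 32 the overlapping gene was measured, and the signs were the same in 20 and opposite in 12. The median difference over these pairs was 0.25 for the microRNA genes and 0.13 for the overlapping genes. With both sides above 0 in the median, equal signs are common without any link. No link is therefore read from these counts or from those by strand below. In RefSeq the annotated Mir17hg begins at the end of Mir19b-1, so that of its cluster only this hairpin counts as overlapping. For 19 the overlapping gene lay on the same strand, and the signs were the same in 11 and opposite in 8. For 11 it lay on the same strand and reached the floor, and there the signs were the same in 9 and opposite in 2. These 11 hold 10 overlapping genes, as Mcm7 counts for Mir25 and Mir93, and Mir17hg is itself a selected gene. Pairs without a given strand are in neither count. Among them at the floor, Gpc1 and Arrb1 had the opposite sign and Ank1 the same. Each of the 26 overlapping genes differed by less than log2 1, a count near the background of 0.477% higher and 1.79% lower.

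Mir423 and its host Nsrp1, a splicing regulator, were both lower in the induced array, by -0.72 for Mir423 and -0.56 for Nsrp1, which had 7.20 in induced cells and 7.76 in non-induced cells. Mir25 and Mir93 lay above 0 with Mcm7, which had 10.75 in induced cells and 10.47 in non-induced cells, a difference of 0.28. Mir7-1 and its host Hnrnpk, an abundant RNA-binding protein gene, had opposite signs, -0.76 for Mir7-1 and 0.15 for Hnrnpk. Mir15a and the noncoding host Dleu2 could not be compared firmly, since Dleu2 was far below the floor with 2.37 in induced cells and 2.27 in non-induced cells. Mir194-1 at 0.62 lies opposite to Iars2 at -0.33, and Mir431 at 0.93 overlaps Rtl1 at 0.33. Spaca6, below the floor at -0.42, had the opposite sign to Mir99b, Mirlet7e and Mir125a, which it overlaps on the same strand.

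**Figure D5:**
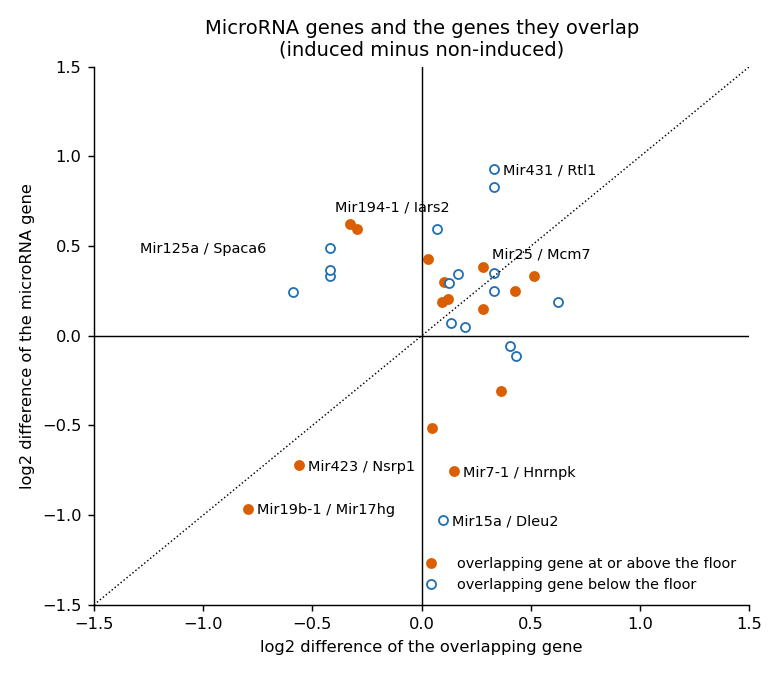
Difference in log2 signal, induced minus non-induced, of 32 microRNA genes against that of the measured gene they overlap, with overlapping genes at or above and below the floor as separate symbols and a dotted line of equal differences. Mir19b-1 and Mir423 lie near the line at the lower left, and Mir7-1 at -0.76 lies below 0 while Hnrnpk is at 0.15.

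The genes that make and use microRNAs were mostly a little lower in the induced array. Of 37 listed, 32 were measured and 31 were at or above the floor, with 7 above 0, 24 below and a median of -0.20. Among all genes at or above the floor 46.6% were above 0, with a median of -0.03. Of the 31 pathway genes, 0 reached log2 1, beside 0.477% higher and 1.79% lower among all genes at or above the floor. The count is near that background. Over the 32 measured, 8 were above 0 and 24 below, against 12 and 20 with a median of -0.12 after the second quantile normalization. After lowess 11 were above 0 and 21 below, with a median of -0.15, and after centring 5 and 27, with -0.30. Dgcr8, the RNA-binding partner of Drosha, had 7.13 in induced cells and 7.95 in non-induced cells, a difference of -0.82. Xpo5, which exports hairpins, had 8.23 in induced cells and 8.74 in non-induced cells, a difference of -0.51. Drosha and Dicer1, the enzymes of both cuts, differed by -0.21 and 0.00.

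Genes that act on the cut microRNAs were next. Lin28b, which blocks let-7 maturation, had 6.51 in induced cells and 7.12 in non-induced cells, a difference of -0.60, and its paralog Lin28a differed by -0.13. The exonuclease gene Xrn1 had 7.26 in induced cells and 7.94 in non-induced cells, a difference of -0.68. Ago3, an Argonaute, and Tnrc6a, a silencing scaffold, differed by -0.57 and -0.51. Ran, the GTPase that Exportin 5 needs, was the most positive of the list at 0.25.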

How the data were processed

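RNA of both groups was read by the authors on 1 Mouse Gene 1.0 ST array each (Affymetrix). The deposited log2 values, 1 per probe set and array, were made by the authors with RMA (background correction, quantile normalization and summary of probes), per the submitters' processing notes. Neither the software version nor the array annotation and its build is stated (not given in the sources used here). Labelled cRNA is named in the labels, and end-labelled single-stranded DNA in the methods. Arrays give no counts, and their number, 1 per group, limits the precision.

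Of 35557 probe sets 21789 had 1 gene symbol in the platform annotation, 1621 several and 12147 none. A gene was represented by its probe set with the highest mean, giving 19938 genes, and each of the 70 selected genes had 1 probe set. All 300 microRNA genes matched RefSeq (GRCm38.p6), which gave positions, overlapping genes and sequences. Near-identical copies may share probes. No test was run. Computation used Python 3.11.15, pandas 2.3.3 and statsmodels 0.14.6, and was tested on simulated data.

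The genes and lists were chosen with earlier results of these data known. Named by rule were genes at log2 1 or more, the 10 brightest, the 10 widest differences each way, those next to the floor, selected genes of the listed clusters, their hosts and the 6 pathway genes with the widest difference. The other named genes were chosen after their values were seen: cluster neighbours, below-floor genes, probe sets with several symbols, the remaining selected genes, Mir212, Mir219a-1, Drosha, Dicer1, Lin28a and Ran. The alternatives were centring, a second quantile normalization, lowess (fraction 0.3), an offset of 32, the mean of probe sets, a size of log2 0.58, no floor, a floor at the 75th percentile, and leaving out host transcripts.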

Additional observations from a re-analysis of the deposited data

Results flagged for a closer look

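Probe sets whose annotation pairs a microRNA with another gene entered no count or median above. Of 61 such probe sets 18 reached the floor, with a median difference of 0.11, 0 were higher and 3 were lower by log2 1 or more, beside 0.477% higher and 1.79% lower among all genes at or above the floor. These 3 were singled out because they carry a signal outside the genes analysed. Each is also annotated to a small nucleolar RNA, a class that was mostly lower in the induced array. In that class 51 genes reached the floor, with a median difference of -0.80. Of these 51, 14 were counted as lower, 27.5%, so such values were common in the class. A pair of probe sets with identical values, annotated to Mir3084-1, Mir3084-2 and the small nucleolar RNA Snora19, had 6.06 in induced cells and 7.78 in non-induced cells, a difference of -1.72 each. A probe set annotated to Mir1291 and Snora34 had 9.34 in induced cells and 10.5 in non-induced cells, a difference of -1.20. Which RNA these probe sets read was not tested.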

How the results depend on the processing

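The median difference of the 70 genes, 0.21, was 0.11 after centring of each array on its median. It was 0.10 over the 69 genes that the rule selected after centring. Centring placed the median of all genes above the floor at -0.13 in place of -0.03. The median was 0.0477 over the 25 microRNA genes above a floor at the 75th percentile and -0.0081 over all 300 without a floor. The counts of 1 higher and 5 lower gene became 0 and 3 with an offset of 32, 9 and 10 at log2 0.58, 6 and 20 without a floor, and 0 and 3 with the 75th percentile floor. Under the other alternatives 1 was higher and 4 to 6 were lower. Mir20a did not reach log2 1 after the second quantile normalization (-0.99), lowess (-0.995) and the offset (-0.96), Mir15a (-0.81) and Mir679 (0.88) did not reach it with the offset, and Mir19b-1 passed it after centring (-1.06). Of all genes, 51 higher became 25 with centring, 10 with the offset, 568 at log2 0.58, 141 without a floor and 8 with the 75th percentile floor, and 191 lower became 108 with the offset, 904 at log2 0.58 and 297 without a floor. The share of higher among counted genes, 16.7% of the selected and 21.1% of all, was 0% and 8.47% with the offset, 14.3% and 8.53% with centring, 47.4% and 38.6% at log2 0.58, 23.1% and 32.2% without a floor, and 0% and 5.63% with the 75th percentile floor. At log2 0.58 3 pathway genes were lower. Of the 70 genes, 6 near 0 changed sign with centring (Mir152, Mir27a, Mir320, Mir345, Mir615 and Mir92b) and 4 with quantile normalization and with lowess (Mir152, Mir219a-1, Mir341 and Mir345). The cause was not tested. No paired analysis was possible because there was 1 array per group, and no array could be left out.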
